A study of Homo sapiens with 12 samples.

Results

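Complexes II, III and IV are 3 of the enzymes of the mitochondrial respiratory chain, and the 47 nuclear genes described here encode their subunits, the assembly factors that build them, and cytochrome c. They are 47 of the 58735 genes in the deposited tables and were taken by symbol through GENCODE 29: 8 genes for complex II (4 subunits and 4 assembly factors), 13 for complex III (9 and 4), 25 for complex IV (10 and 15) and CYCS, which encodes cytochrome c. SK-BR-3 is an established human cell line from a HER2-positive breast cancer. Its derivative SK/EPI became resistant to epirubicin, an anthracycline, through long, stepwise exposure to rising doses. SK/EPI cells were also treated for 48 h with a control siRNA (SK/EPI-siControl) or with one that targets BCRP, the drug pump encoded by ABCG2 (SK/EPI-siBCRP), and RNA-seq was made from 3 libraries in each of the 4 groups. Both siRNA groups and SK/EPI share the resistant background, which is a single derived line, and each silenced library received the same siRNA.

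The respiratory chain passes electrons from fuel to oxygen in the inner mitochondrial membrane. Complex II (succinate dehydrogenase) is also an enzyme of the citric acid cycle and feeds electrons into ubiquinone, complex III (cytochrome bc1) moves them from ubiquinol to cytochrome c, and complex IV (cytochrome c oxidase) hands them to oxygen; complexes III and IV also pump protons. Every subunit of complex II is encoded in the nucleus, whereas complex III takes its cytochrome b, and complex IV its catalytic core, from mitochondrial DNA (mtDNA). Assembly factors insert flavin, heme, copper and iron-sulfur clusters or hold unfinished modules, and they are not part of the finished enzyme.

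The siRNA was siBCRP#1, whose upper strand is shown because every difference after silencing rests on this molecule. It matched ABCG2 across the junction of exons 7 and 8, in coding sequence on chromosome 4 of GRCh38, with 20 bases at chr4:88118109-88118128 and 5 bases at chr4:88115054-88115058 on the minus strand.
siBCRP#1, upper strand: gggauacuuugaaucagcugguuau
ABCG2 mRNA was at 32.5, 32.7 and 33.7 FPKM (fragments scaled to the length of a gene's exons and to sequencing depth) in SK/EPI-siControl and at 2.84, 3.47 and 2.91 FPKM in SK/EPI-siBCRP. It was at 33.9, 35.9 and 32.7 FPKM in SK/EPI and between 0.022 and 0.075 FPKM in SK-BR-3, from 2 to 6 reads per library. The targeted gene was thus low in the silenced libraries and in the parental line, and high in the other 6 libraries.

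Promoters of the 47 genes were searched for the motifs of factors known to act on respiratory chain genes, as a description of what the members share in sequence. RefSeq (GRCh38.p14) gave a stretch from 250 bases before to 50 after the start site for 41 of the 47 genes, with no entry for COX6C, COX11, CYC1, SCO2, SDHC and UQCRB, and the first start listed for each gene was used. On either strand, the NRF1 motif TGCGCANGC was found in 10 of the 41 promoters (24.4%) and in 4.63% of all 27305 promoters. The GABPA motif CCGGAAGT was found in 12 (29.3%) against 4.44% of all promoters, and the YY1 motif AAGATGGCG in 4 (9.76%) against 1.85%. The SP1 motif GGGCGG was in 61% of the members' promoters and 44.6% of all, and the TATA box TATAAA in 7.32% and 12%. Subunits and assembly factors held the GABPA motif in 6 of 19 and 6 of 21 promoters, and the NRF1 motif in 6 and 4. Among the 19 promoters of genes that were lower in SK/EPI and higher after silencing, 4 held NRF1 and 5 held GABPA matches, beside 6 and 7 among the other 22. The stretches below, from 7 members called in at least 1 comparison, hold these matches, with NRF1, GABPA and YY1 matches in capitals; none runs more than 25 bases past the start site.
SDHA, chr5:218128-218333, plus strand: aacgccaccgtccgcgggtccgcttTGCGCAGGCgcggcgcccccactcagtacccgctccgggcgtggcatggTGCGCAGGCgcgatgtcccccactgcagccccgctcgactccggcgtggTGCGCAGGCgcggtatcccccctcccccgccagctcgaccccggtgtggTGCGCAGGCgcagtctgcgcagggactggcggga
SDHB, chr1:17054008-17054235, minus strand: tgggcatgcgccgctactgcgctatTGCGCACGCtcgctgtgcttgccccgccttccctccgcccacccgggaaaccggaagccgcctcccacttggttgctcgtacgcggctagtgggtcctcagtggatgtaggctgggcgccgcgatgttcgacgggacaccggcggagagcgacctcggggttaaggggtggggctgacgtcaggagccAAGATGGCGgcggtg
SDHD, chr11:112086737-112086827, plus strand: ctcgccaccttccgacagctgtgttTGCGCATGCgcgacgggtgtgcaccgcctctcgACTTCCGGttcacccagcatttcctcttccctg
UQCRH, chr1:46303626-46303683, plus strand: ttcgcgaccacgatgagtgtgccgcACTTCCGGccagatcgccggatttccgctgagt
COX5B, chr2:97645901-97646086, plus strand: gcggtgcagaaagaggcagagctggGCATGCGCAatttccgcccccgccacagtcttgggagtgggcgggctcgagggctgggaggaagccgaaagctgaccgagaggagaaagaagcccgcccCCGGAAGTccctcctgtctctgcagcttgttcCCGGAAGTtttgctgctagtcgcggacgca
COX8A, chr11:63974576-63974633, plus strand: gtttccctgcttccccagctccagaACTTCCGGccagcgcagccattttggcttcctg
COX10, chr17:14069360-14069517, plus strand: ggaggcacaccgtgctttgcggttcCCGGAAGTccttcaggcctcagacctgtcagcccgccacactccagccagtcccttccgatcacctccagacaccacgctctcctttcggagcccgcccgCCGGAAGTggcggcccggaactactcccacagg
In SDHA, the NRF1 motif was repeated 4 times at even spacing, starting at positions -167, -118, -69 and -20 from the start site. SDHB held 1 NRF1 and 1 YY1 match, SDHD 1 NRF1 and 1 GABPA match, and COX5B 1 NRF1 and 2 GABPA matches.

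Each library held between 15830381 and 20545811 reads on genes, and both tables gave whole reads per gene when the FPKM values were multiplied back. In SK-BR-3 the reads on genes came to 99.8% to 101% of the total by which the values had been scaled, against 92.8% to 95.4% in SK/EPI. Of 8 luminal breast markers, 7 were above 1 FPKM in every group, and CDH1, the epithelial cadherin, was at or near 0 in all of them. The summed level of the 8 was 3526 to 3706 FPKM in SK-BR-3, 2189 to 2310 in SK/EPI, 2569 to 2616 in SK/EPI-siControl and 2158 to 2197 in SK/EPI-siBCRP, with members going both ways: in SK/EPI, ERBB2, FOXA1 and KRT19 were lower and KRT8, KRT18 and GATA3 higher. The endothelium sum was 13.9 to 14.1 FPKM in SK/EPI-siControl and 22.3 to 22.5 in SK/EPI-siBCRP. The leukocyte and endothelium markers at 1 FPKM or more were CD14, at 27.4 FPKM in SK/EPI and 0.513 in SK-BR-3, and CDH5, at 27.5 and 6.77 FPKM; the defining markers PTPRC and PECAM1 were at most 0.196 FPKM in any group. The part of these markers in the results below was not tested.

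The members spanned a wide range of mRNA levels, and subunits lay above assembly factors. In SK-BR-3 the subunits had a median of 60.2 FPKM, from 3.66 (UQCRB) to 209 (COX8A), and the assembly factors a median of 8.68 FPKM, from 0.327 (COX20) to 46.9 (COX14). The order was similar within each complex, with medians of 34.8 and 7.05 FPKM in complex II, 61.0 and 11.4 in complex III and 67.5 and 6.34 in complex IV. CYC1, the heme-bearing cytochrome c1 of complex III, was the highest member in SK/EPI, SK/EPI-siControl and SK/EPI-siBCRP, with means of 139, 122 and 174 FPKM, and COX8A was the highest in SK-BR-3. COX20 and PET100, both factors of complex IV, averaged 0.338 and 0.869 FPKM. FPKM divides by the length of all annotated exons, so a gene with long rarely used exons appears low: UQCRB has 9715 exonic bases in GENCODE 29 and UQCRH 1408. UQCRB also held fewer reads, 547 to 710 per SK-BR-3 library against 4211 to 4869 for UQCRH. The annotated exons of UQCRB cover its whole span, so reads from introns count toward it too. COX20 shares 72% of its exonic bases with HNRNPU on the opposite strand, and these libraries do not record strand.

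**Figure D1:**
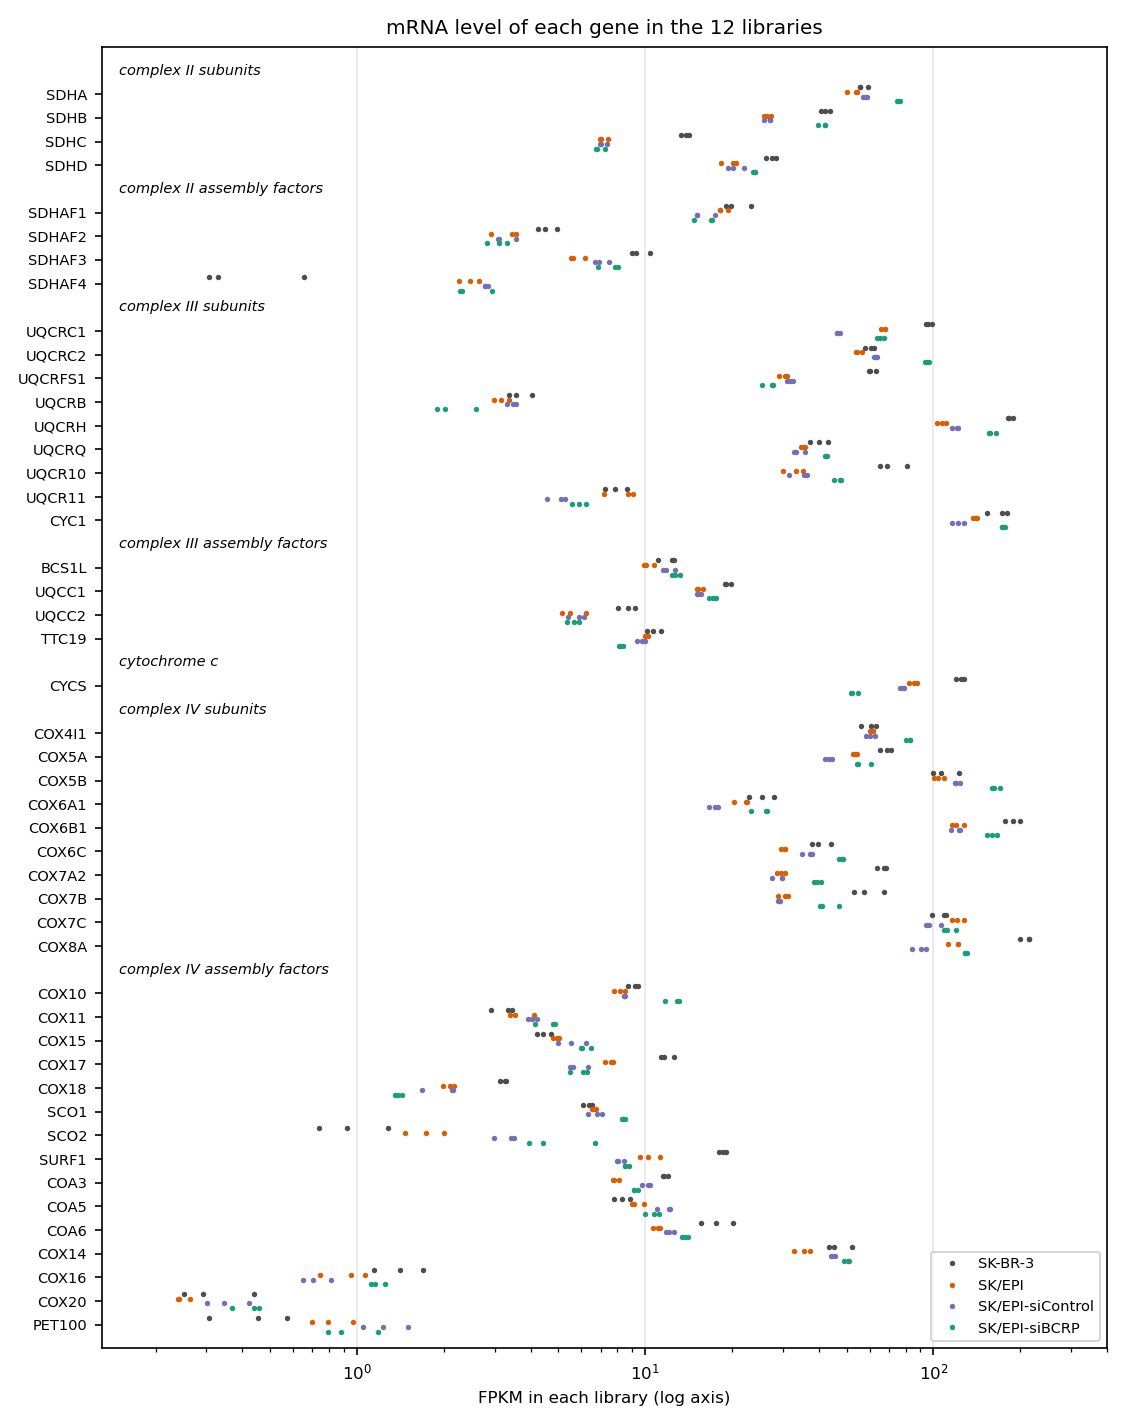
FPKM of the 47 genes (log axis) in each of the 12 libraries, 3 points per group, ordered by complex and role. Subunits lie mostly between 20 and 200 FPKM and assembly factors mostly under 20; UQCRB, UQCR11 and SDHC are the low subunits and COX14 is the high assembly factor.

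The first comparison asked how the resistant line differs from its parent. Of the 47 members, all of which passed the filter on low reads, 32 (68.1%) were downregulated and 5 (10.6%) upregulated in SK/EPI compared with SK-BR-3, and 10 were not called (limma on log2(FPKM + 1), Benjamini-Hochberg adjusted p under 0.05 over 15823 genes). Among all genes tested, 37% were called lower and 37.9% higher, 74.9% in all. Of the 4551 genes whose mean reached 10 FPKM, 50.9% were called lower and 33% higher, and at that level 24 of the 29 members were lower and 1 was higher. The median log2 fold change was -0.33 over the members and 0.01 over all genes tested. In bulk RNA, fewer cells that express a gene and less of its mRNA per cell cannot be told apart. When values were scaled to the reads on genes, 26 members were lower and 9 higher, beside 33.3% lower and 42.3% higher among all genes tested, with the calls of SDHA, UQCRC2, UQCRQ, BCS1L, COX6A1 and COX10 lost.

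All 4 subunits of complex II were lower in SK/EPI. SDHC, a membrane anchor, was at 14.2, 13.9 and 13.3 FPKM in SK-BR-3 and at 7.04, 6.96 and 7.43 FPKM in SK/EPI (log2 fold change -0.86, standard error 0.04, adjusted p = 5.4e-07). The groups lay far apart, and SDHC fell by 48.3%. SDHB, which carries the iron-sulfur clusters, was at 42.1, 40.9 and 43.8 FPKM in SK-BR-3 and 27.4, 26.5 and 25.8 FPKM in SK/EPI (log2 fold change -0.65, adjusted p = 1.6e-06). SDHD, the other anchor, fell by 28.1%. SDHA, the flavoprotein that oxidizes succinate and the most abundant mRNA of the complex, was at 55.8, 59.4 and 55.7 FPKM in SK-BR-3 and 50.3, 53.8 and 54.1 FPKM in SK/EPI. Its groups were separated by little, its log2 fold change was -0.11 (95% interval -0.21 to -0.01, adjusted p = 0.041), and its call was lost in 7 of the alternatives. Its pseudogenes held 7.59% of the reads on SDHA and its copies in SK-BR-3 and 10.1% in SK/EPI.

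The complex II assembly factors moved in different directions. SDHAF4, which helps the flavinated SDHA meet SDHB, was the member with the largest rise. It was at 0.656, 0.308 and 0.328 FPKM in SK-BR-3 (8 to 15 reads) and at 2.66, 2.46 and 2.26 FPKM in SK/EPI (61 to 75 reads), a mean of 0.431 ± 0.2 against 2.46 ± 0.2 FPKM (SD, n = 3). On the log2(FPKM + 1) scale, which understates changes of such low genes, the difference was 1.28 (standard error 0.10, adjusted p = 8.5e-06). SDHAF3, which with SDHAF1 protects the iron-sulfur clusters of SDHB, was at 9.28, 10.4 and 8.98 FPKM in SK-BR-3 and 5.63, 6.2 and 5.54 FPKM in SK/EPI (log2 fold change -0.63, adjusted p = 4.1e-05). SDHAF2, needed for the flavin of SDHA, was lower too, at 4.96, 4.49 and 4.24 FPKM against 3.56, 2.91 and 3.45 FPKM (log2 fold change -0.37, adjusted p = 0.003). SDHAF1 was not called, with an interval of -0.31 to 0.02.

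In complex III, 7 of 9 subunits and 3 of 4 assembly factors were lower in SK/EPI, and none was higher. The largest falls were in UQCR10, a small subunit, and UQCRFS1, the Rieske iron-sulfur protein. UQCR10 was at 81, 69.1 and 65.1 FPKM in SK-BR-3 and at 33.3, 35.4 and 30.1 FPKM in SK/EPI (log2 fold change -1.10, standard error 0.09, adjusted p = 9.6e-06). UQCRFS1 was at 63.1, 59.8 and 60 FPKM in SK-BR-3 and at 29.1, 31.1 and 30.6 FPKM in SK/EPI, and fell by 50.4% (log2 fold change -0.99, standard error 0.04, adjusted p = 1.3e-07). For both, every SK/EPI library lay far below every SK-BR-3 library.

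The abundant UQCRH, an acidic hinge protein at the cytochrome c docking site, was at 188, 182 and 182 FPKM in SK-BR-3 and 103, 107 and 110 FPKM in SK/EPI (log2 fold change -0.78, adjusted p = 5e-07). UQCRHL, an intronless gene nearly identical to UQCRH, was also lower (log2 fold change -0.61), and the split of reads between the pair is uncertain. The core proteins UQCRC1 and UQCRC2 differed in size of change: UQCRC1 was at 98.6, 94.1 and 95.6 FPKM against 66, 68 and 68.1 FPKM (log2 fold change -0.51), and UQCRC2 fell by 8.84% in the mean (log2 fold change -0.13, adjusted p = 0.012). CYC1 was at 173, 180 and 153 FPKM in SK-BR-3 and 137, 141 and 140 FPKM in SK/EPI, so its groups did not overlap (log2 fold change -0.27, adjusted p = 0.0037). UQCRQ, a ubiquinone-binding protein, was also called lower (log2 fold change -0.18). UQCRB and UQCR11 were not called, with intervals of -0.32 to 0.01 and -0.14 to 0.27. Of the assembly factors, UQCC2, a partner of newly made cytochrome b, was at 8.72, 9.25 and 8.06 FPKM in SK-BR-3 and 6.23, 5.15 and 5.5 FPKM in SK/EPI (log2 fold change -0.55, adjusted p = 0.00022). UQCC1, its binding partner, and BCS1L, the translocase of the Rieske protein, were lower by 0.31 and 0.21 on the log2 scale, and TTC19 was not called.

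Cytochrome c, the carrier between complexes III and IV, was lower as well. CYCS was at 128, 125 and 120 FPKM in SK-BR-3 and 82, 88 and 85.5 FPKM in SK/EPI (124 ± 4.2 against 85.2 ± 3 FPKM, SD, n = 3), with a log2 fold change of -0.54 (standard error 0.04, adjusted p = 6.5e-06).

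The 10 complex IV subunits ranged from a fall of 1.14 to a rise of 0.19 on the log2 scale, with 7 called lower and 1 higher. COX7A2, a small subunit at the dimer interface, was at 68.6, 67.4 and 63.7 FPKM in SK-BR-3 and 28.6, 30.5 and 29.6 FPKM in SK/EPI, the largest fall of the 47 genes (log2 fold change -1.14, standard error 0.04, adjusted p = 7.4e-08). COX7B, also a small membrane subunit, was at 67.1, 52.9 and 57.6 FPKM against 30.6, 28.8 and 31.2 FPKM (log2 fold change -0.94, adjusted p = 1.5e-05). COX8A, the most abundant member in SK-BR-3, was at 199, 214 and 214 FPKM there and at 113, 122 and 121 FPKM in SK/EPI (log2 fold change -0.81, adjusted p = 1.5e-06). In all of these the groups were far apart.

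COX6B1 (200, 189 and 177 against 116, 120 and 127 FPKM), COX6C, COX5A and COX6A1 were lower by 0.64, 0.41, 0.35 and 0.21 on the log2 scale. COX7C was the only one of the 23 nuclear subunits called higher, at 109, 111 and 99.2 FPKM in SK-BR-3 and 116, 121 and 127 FPKM in SK/EPI (log2 fold change 0.19, standard error 0.05, adjusted p = 0.011). COX4I1 and COX5B were not called; their intervals were -0.08 to 0.14 and -0.24 to 0.10. COX4I1 was called higher when values were scaled to the reads on genes. Subunits of the same complex, which are present in equal number in the finished enzyme, differed in the size of their mRNA change by more than their standard errors.

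Of the 15 complex IV assembly factors, 8 were lower, 3 higher and 4 not called. SURF1, which helps build the heme center of COX1, was at 19.1, 18.6 and 18.1 FPKM in SK-BR-3 and at 9.59, 10.2 and 11.2 FPKM in SK/EPI, a fall of 0.79 on the log2 scale (standard error 0.06, adjusted p = 4.7e-06). Copper delivery factors did not share a direction: COX17, the copper chaperone, and COA6 were lower (log2 fold changes -0.59 and -0.64), SCO1 and COX11 were not called, and SCO2 was higher. With values scaled to the reads on genes, SCO1 and COX11 were called higher. SCO2 was at 0.74, 0.921 and 1.28 FPKM in SK-BR-3 and 2, 1.73 and 1.46 FPKM in SK/EPI (12 to 40 reads per library), with a log2 fold change of 0.47 (standard error 0.11, adjusted p = 0.006). SCO2 has a second entry in GENCODE 29 that shares 83.9% of its exonic bases, so its level here comes from part of its reads.

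PET100, a small membrane-bound factor, was at 0.454, 0.574 and 0.307 FPKM against 0.965, 0.698 and 0.794 FPKM and was called higher (log2 fold change 0.33, adjusted p = 0.0067), from 13 to 42 reads per library. COA5 (log2 fold change 0.15, adjusted p = 0.038) lost its call in 6 of the alternatives. The early factors COX14 and COA3, which hold newly made COX1, were lower by 0.40 and 0.51, and COX18, which moves the tail of COX2 across the membrane, by 0.46 (3.14, 3.29 and 3.27 against 1.98, 2.11 and 2.17 FPKM). The heme factors COX10 and COX15 were at -0.15 (called) and 0.12 (not called). With values scaled to the reads on genes, COX10 lost its call and COX15 was called higher. COX16 was also called lower, from 26 to 57 reads per library, and COX20, at 0.44, 0.25 and 0.291 FPKM against 0.241, 0.239 and 0.263 FPKM, was not called. COA3 (12, 11.5 and 11.6 against 7.75, 8.09 and 7.81 FPKM) shares 42.5% and COX16 36% of exonic bases with other genes. The subunit COX8A shares 34.5% and the complex II factor SDHAF2 30.5%, in each case with a gene on the same strand.

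By role, 18 of 23 subunits (78.3%) and 13 of 23 assembly factors (56.5%) were lower in SK/EPI, with median log2 fold changes of -0.41 and -0.21. The standard errors were close, with medians of 0.05 and 0.06. Of the 6 assembly factors that were not called, 5 had a 95% interval that left out the subunits' median of -0.41; COX20 was too low for such a fall to show on the log2(FPKM + 1) scale. Levels differed between the roles, however, and of the 7 assembly factors at a mean of 10 FPKM or more, 5 were lower, against 18 of 21 subunits. By complex, 6 of 8 members of complex II, 10 of 13 of complex III and 15 of 25 of complex IV were lower, with medians of -0.41, -0.27 and -0.33. The difference between roles or complexes was not tested as such.

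**Figure D2:**
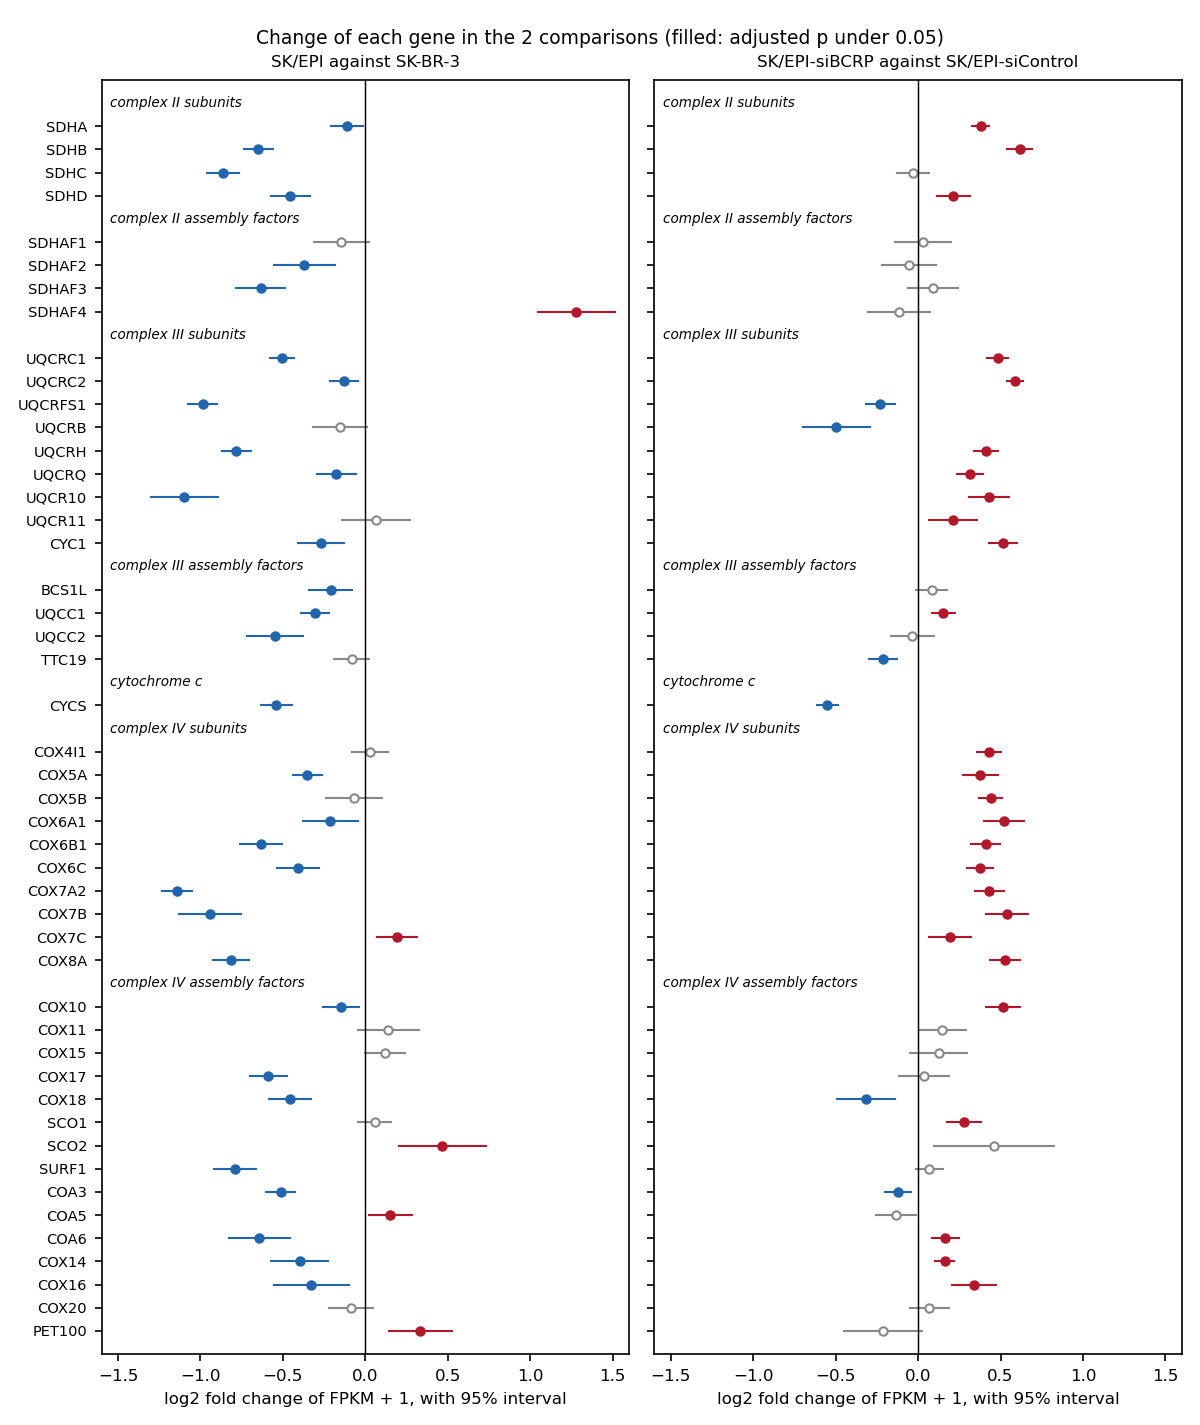
Log2 fold change of FPKM + 1 with its 95% interval for the 47 genes in SK/EPI against SK-BR-3 (left) and SK/EPI-siBCRP against SK/EPI-siControl (right), with filled points where the adjusted p was under 0.05. On the left 32 genes lie below 0 with a call, led by COX7A2, and SDHAF4 stands alone at 1.28; on the right all 10 complex IV subunits lie above 0 with a call, and CYCS is lowest at -0.55.

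The second comparison asked what BCRP silencing changes in SK/EPI cells. After silencing, 26 members (55.3%) were upregulated, 6 (12.8%) were downregulated and 15 were not called, out of 47, with a median log2 fold change of 0.19. Among all 16298 genes tested, 19.4% were called higher and 18.7% lower, 38.1% in all, and the median was 0.00. Of the 4497 genes whose mean reached 10 FPKM, 36.3% were higher and 23.2% lower; of the 28 members at that level, 23 were higher and 2 lower. The changes were modest in size, and 7 of the 26 rises reached 0.5 on the log2 scale.

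In complex II, 3 of 4 subunits rose. SDHB was at 27, 25.7 and 27.1 FPKM in SK/EPI-siControl and 39.9, 42.1 and 42.1 FPKM in SK/EPI-siBCRP, the largest rise of the 47 genes (log2 fold change 0.62, standard error 0.03, adjusted p = 1.4e-05). SDHA was at 58.2, 58.7 and 56.8 FPKM against 75, 75.3 and 76.4 FPKM (log2 fold change 0.38, adjusted p = 1.9e-05), and SDHD rose by 0.21. SDHC, which had fallen most in SK/EPI, was at 7.35, 6.95 and 7 FPKM in the control and 6.83, 6.74 and 7.26 FPKM after silencing, and the groups overlapped (interval -0.13 to 0.07). None of the 4 complex II assembly factors was called, and SDHAF4 was at 2.77, 2.77 and 2.85 FPKM against 2.28, 2.31 and 2.94 FPKM.

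In complex III, 7 subunits rose and 2 fell. UQCRC2 was at 62.2, 62.5 and 64 FPKM in SK/EPI-siControl and 93.7, 95.1 and 96.5 FPKM in SK/EPI-siBCRP, 51.2% higher (log2 fold change 0.59, standard error 0.02, adjusted p = 4.4e-06). UQCRC1 was at 46.1, 46.2 and 47.2 FPKM against 65, 63.7 and 67.5 FPKM (log2 fold change 0.48, adjusted p = 1.8e-05). CYC1 was at 128, 121 and 116 FPKM against 172, 173 and 177 FPKM (log2 fold change 0.51), and UQCRH at 122, 121 and 116 FPKM against 157, 156 and 165 FPKM (0.41). UQCR10, UQCRQ and UQCR11 rose by 0.43, 0.31 and 0.21, though UQCR11 lost its call in 5 of the alternatives.

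The falls in complex III were in UQCRFS1, UQCRB and the assembly factor TTC19, which clears fragments of the Rieske protein from the complex. UQCRFS1 was at 31.8, 30.9 and 32.5 FPKM in SK/EPI-siControl and 27.7, 25.5 and 27.6 FPKM in SK/EPI-siBCRP (log2 fold change -0.23, standard error 0.04, adjusted p = 0.0028). UQCRB, a ubiquinone-binding subunit, was at 3.56, 3.48 and 3.32 FPKM against 1.89, 2.02 and 2.59 FPKM (log2 fold change -0.50, standard error 0.09, adjusted p = 0.0036). TTC19 was at 9.98, 9.73 and 9.35 FPKM against 8.09, 8.16 and 8.39 FPKM (log2 fold change -0.21, adjusted p = 0.0029). In each of them the groups did not overlap. UQCC1 rose slightly, from 15.7, 15.2 and 15.2 FPKM to 17.2, 16.7 and 17.7 FPKM (log2 fold change 0.15, adjusted p = 0.0059), and UQCC2 and BCS1L were not called.

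CYCS was the member with the largest fall after silencing. It was at 78.3, 76.3 and 78.9 FPKM in SK/EPI-siControl and 52.1, 51.7 and 54.7 FPKM in SK/EPI-siBCRP, and fell by 32.1% (log2 fold change -0.55, standard error 0.03, adjusted p = 1.3e-05). Cytochrome c mRNA was therefore lower in both comparisons, by about the same amount, while the complexes on either side of it rose in most of their subunits after silencing.

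All 10 complex IV subunits rose after silencing, by 0.19 to 0.54 on the log2 scale, a narrower range than in the first comparison (SD over the 10 subunits 0.10 against 0.44). COX7B was at 29, 29.1 and 29.5 FPKM in SK/EPI-siControl and 40.4, 41.2 and 47.1 FPKM in SK/EPI-siBCRP (log2 fold change 0.54, standard error 0.05, adjusted p = 0.00029). COX8A was at 84.2, 94 and 90.5 FPKM against 128, 131 and 128 FPKM (log2 fold change 0.52, adjusted p = 6.6e-05). COX7A2 was at 29.9, 27.6 and 29.8 FPKM against 38.5, 40.8 and 39.5 FPKM (log2 fold change 0.43, adjusted p = 0.00014), and COX6B1 at 122, 123 and 115 FPKM against 160, 154 and 166 FPKM (0.41). COX4I1 and COX5B, which had not been called in the first comparison, rose by 0.43 and 0.44. The smallest rise was in COX7C, at 107, 94.4 and 96.2 FPKM against 111, 109 and 120 FPKM (log2 fold change 0.19, adjusted p = 0.026), and this call was lost in 5 of the alternatives.

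The complex IV assembly factors did not move as a block: 5 rose, 2 fell and 8 were not called. COX10, which makes the farnesylated heme of complex IV, was at 8.47, 8.44 and 8.52 FPKM in SK/EPI-siControl and 11.7, 13.1 and 12.9 FPKM in SK/EPI-siBCRP (log2 fold change 0.52, standard error 0.04, adjusted p = 0.00014). SCO1 rose by 0.28, COX16 by 0.34 from 23 to 47 reads per library, and COA6 and COX14 by 0.17 and 0.16. COX18 fell, from 2.15, 2.14 and 1.68 FPKM to 1.36, 1.39 and 1.44 FPKM (log2 fold change -0.32, standard error 0.08, adjusted p = 0.014). COA3 was at 10.4, 9.78 and 10.2 FPKM against 9.11, 9.11 and 9.42 FPKM (log2 fold change -0.12, adjusted p = 0.026), and its call was lost in 5 of the alternatives. SURF1, COX17, COX11, COX15, COA5, COX20 and PET100 were not called. SCO2 was at 3.52, 2.98 and 3.42 FPKM against 6.69, 4.44 and 3.95 FPKM, with replicate 1 far above the others, and just missed the threshold (log2 fold change 0.46, interval 0.09 to 0.83, adjusted p = 0.053).

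By role, 20 of 23 subunits (87.0%) and 6 of 23 assembly factors (26.1%) rose after silencing, with median log2 fold changes of 0.41 and 0.07. Of the 14 assembly factors that were not called, 12 had a 95% interval below the subunits' median of 0.41, and the highest of these bounds was 0.29. The interval of SCO2 held that median, and COX20 was too low for such a rise to show on the log2(FPKM + 1) scale. Among members at a mean of 10 FPKM or more, 19 of 20 subunits and 4 of 7 assembly factors rose, with medians of 0.43 and 0.15. Median standard errors were 0.04 for subunits and 0.06 for assembly factors. By complex, 3 of 8, 8 of 13 and 15 of 25 members rose, with medians of 0.06, 0.21 and 0.28, and the low median of complex II came from its assembly factors (-0.01, against 0.30 for its subunits). These differences were not tested as such.

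**Figure D3:**
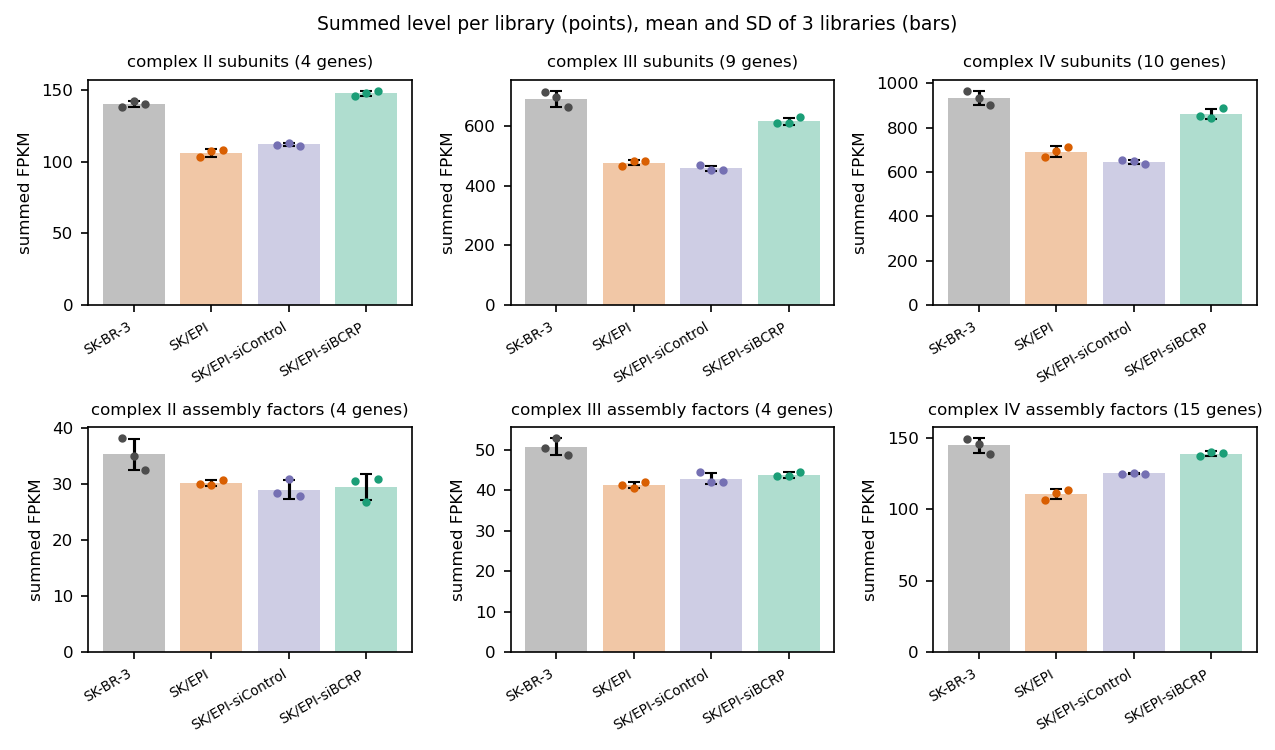
Summed FPKM of the subunits and assembly factors of each complex, with a point for each library and bars for the mean and SD of 3 libraries. Subunit sums are lower in SK/EPI than in SK-BR-3 and higher in SK/EPI-siBCRP than in SK/EPI-siControl for each complex, while the assembly factor sums of complexes II and III overlap between the siRNA groups.

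Summed over the 23 subunits, the level was 1768 ± 57.7 FPKM in SK-BR-3, 1276 ± 34.2 in SK/EPI, 1217 ± 19.3 in SK/EPI-siControl and 1627 ± 36.5 in SK/EPI-siBCRP (SD, n = 3). For the 23 assembly factors the sums were 230.6 ± 9.31, 182 ± 4.05, 197 ± 1.97 and 212.1 ± 2.5 FPKM. The groups with and without siRNA come from tables that may have been scaled separately, so these levels stand side by side and were not tested across tables. A sum is carried by its most abundant genes, and complex IV subunits alone gave 934 of the 1768 FPKM in SK-BR-3.

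Set side by side, 21 members were lower in SK/EPI and higher after silencing, a pattern held by 8.51% of the 15152 genes tested in both comparisons. Of these 21, 16 were subunits and 5 were assembly factors (UQCC1, COX10, COA6, COX14 and COX16). With values scaled to the reads on genes, SDHA, UQCRC2, UQCRQ, COX6A1 and COX10 lost their call in SK/EPI. Genes at a mean of 10 FPKM or more were called lower in SK/EPI (50.9%) and higher after silencing (36.3%) more often than all genes. The share of the joint pattern among such genes was not computed. The 2 comparisons share no libraries. By the smaller of its 2 absolute log2 fold changes, the clearest were SDHB (-0.65 and 0.62), COX7B (-0.94 and 0.54), COX8A (-0.81 and 0.52), UQCRC1 (-0.51 and 0.48) and COX7A2 (-1.14 and 0.43). No member was called higher in SK/EPI and lower after silencing, a pattern of 8.51% of genes tested in both. COX7C was the only member called higher in both, against 8.07% of genes tested in both, and 4 were called lower in both, against 7.19%: CYCS, COX18, UQCRFS1 and COA3. The size of the fall and of the rise differed from gene to gene, and their relation was not tested: UQCRC2 and SDHA, with small falls of 0.13 and 0.11, rose by 0.59 and 0.38, whereas SDHC and SURF1, with falls of 0.86 and 0.79, were not called.

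**Figure D4:**
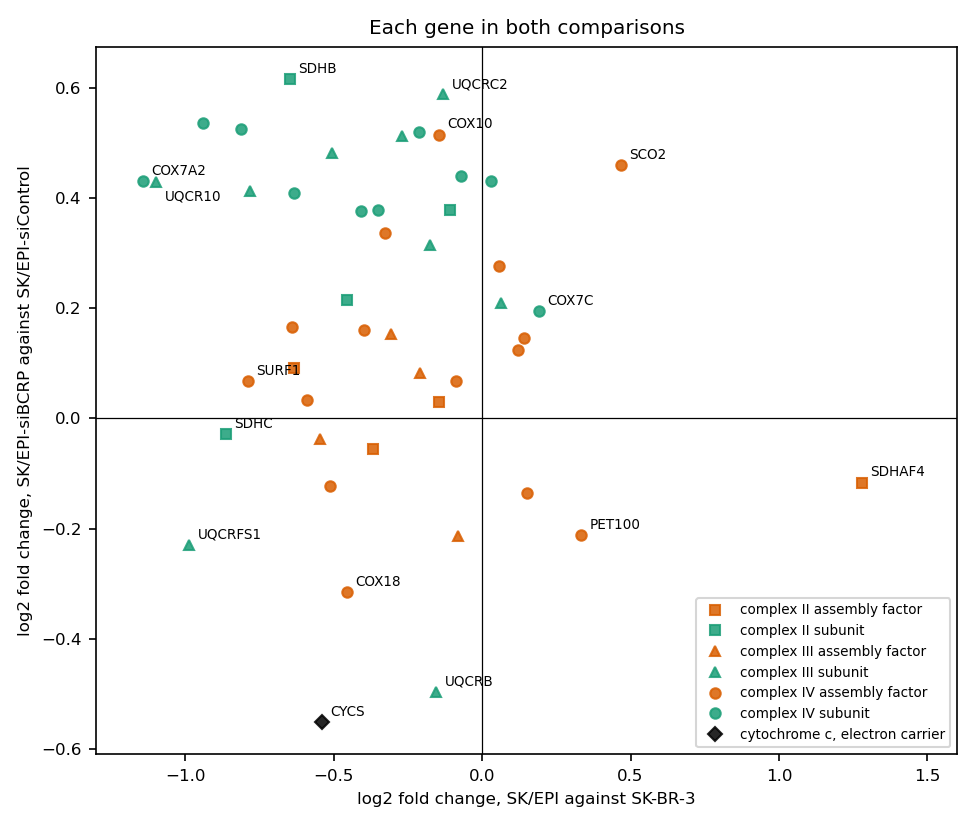
Log2 fold change of each of the 47 genes in SK/EPI against SK-BR-3 (horizontal) and in SK/EPI-siBCRP against SK/EPI-siControl (vertical), with shapes for the complex and colours for the role. Most subunits lie in the upper left (lower in SK/EPI, higher after silencing), while many assembly factors lie near 0 on the vertical axis and CYCS, UQCRFS1, UQCRB and COX18 lie in the lower left.

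The mtDNA-encoded subunits were mixed in SK/EPI, with 2 higher, 1 lower and 1 not called, and 3 of 4 were higher after silencing. MT-CYB, the cytochrome b of complex III, was at 1819, 1965 and 1920 FPKM in SK-BR-3 and 1371, 1445 and 1438 FPKM in SK/EPI, and was lower (log2 fold change -0.42, adjusted p = 0.00087). Of the complex IV core, MT-CO2 was at 6028, 6092 and 5727 FPKM against 7590, 8535 and 8461 FPKM and MT-CO3 at 3992, 3815 and 3408 FPKM against 4678, 5156 and 5276 FPKM, both higher (log2 fold changes 0.46 and 0.43, adjusted p = 0.017 and 0.012). MT-CO1 was at 8590, 9009 and 9237 FPKM against 8171, 8747 and 8873 FPKM, and the groups overlapped.

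After silencing, MT-CO1 rose from 3495, 3499 and 3489 FPKM to 3876, 4031 and 4040 FPKM (log2 fold change 0.19, adjusted p = 0.016). MT-CO3 rose from 1649, 1756 and 1724 FPKM to 1937, 1878 and 1868 FPKM and MT-CYB from 960, 1015 and 975 FPKM to 1040, 1094 and 1068 FPKM (0.15 and 0.12). MT-CO2, at 6581, 6466 and 6604 FPKM against 6249, 6536 and 6789 FPKM, was not called. These rises were smaller than the median rise of 0.41 in the nuclear subunits. Of all gene reads, the mtDNA genes together made up 4.18% to 4.23% in SK-BR-3, 5.1% to 5.38% in SK/EPI, 3.58% to 3.68% in SK/EPI-siControl and 3.73% to 3.84% in SK/EPI-siBCRP.

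Of the isoforms and associated subunits, several were at or near 0 and NDUFA4 was abundant. COX4I2 and COX6A2 were listed at 0 in all 12 libraries, and 5 of 9 such genes passed the filter in the first comparison and 4 in the second. NDUFA4, a protein associated with complex IV, moved as most subunits did, at 89.4, 91.5 and 86 FPKM in SK-BR-3 and 51.5, 57.4 and 53.8 FPKM in SK/EPI (log2 fold change -0.71), and at 50.4, 47.4 and 50.6 FPKM against 62.1, 63.2 and 66.4 FPKM after silencing (0.36). COX7B2, a testis isoform of COX7B, was low but higher in SK/EPI, at 2.78, 2.4 and 2.65 FPKM against 0.859, 0.823 and 0.976 FPKM (log2 fold change 0.94, adjusted p = 4.3e-06). COX7A2L, which links complexes III and IV into supercomplexes, was higher in SK/EPI (log2 fold change 0.51) and was not called after silencing.

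Of 18 further assembly factors that passed the filter, 4 were higher (22.2%) and 8 lower (44.4%) in SK/EPI. After silencing 6 were higher (33.3%) and 1 lower (5.56%), and the 2 medians were -0.07 and 0.06. Among all genes tested, 37.9% were higher and 37% lower in SK/EPI, and 19.4% higher and 18.7% lower after silencing. LRPPRC, which stabilizes mitochondrial mRNA, rose in both comparisons: it was at 21, 21.2 and 23.2 FPKM in SK-BR-3 and 32.8, 32.3 and 31.8 FPKM in SK/EPI (log2 fold change 0.55), and at 29.5, 29.7 and 30.6 FPKM against 43.3, 44.9 and 43.6 FPKM after silencing (0.54). TACO1, an activator of COX1 translation, had the largest fall in SK/EPI, from 30.6, 29.1 and 28.3 FPKM to 15.4, 16.2 and 17 FPKM (log2 fold change -0.82). COA4 was the factor called lower after silencing, at 13, 13.4 and 13.7 FPKM against 16, 16 and 15.4 FPKM (-0.23).

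The subunits of the other OXPHOS enzymes give the scale for these values. In SK/EPI, 24 of 36 complex I subunits tested and 10 of 15 ATP synthase subunits were lower, with medians of -0.38 and -0.38, beside -0.41 for the subunits of complexes II to IV. The largest fall in complex I was in NDUFB9, from 215, 213 and 210 FPKM to 69.4, 74 and 73.6 FPKM (log2 fold change -1.54), and in ATP synthase in ATP5PB, from 88.4, 82.8 and 82.6 FPKM to 30.8, 34.2 and 34.4 FPKM (-1.33). The largest rises called were in NDUFA11 (2.5, 3.01 and 2.96 against 4.46, 3.9 and 4.48 FPKM) and ATP5MC2 (15.8, 16.7 and 17 against 19.5, 21.4 and 22.2 FPKM). After silencing, 25 of 37 and 14 of 15 were higher, with medians of 0.32 and 0.47, beside 0.41. NDUFV1 rose most in complex I, from 47, 44.9 and 44.8 FPKM to 71.9, 68.3 and 70.3 FPKM (0.61), and ATP5F1D in ATP synthase, from 20.2, 21.4 and 21.4 FPKM to 40, 35 and 37.7 FPKM (0.81). NDUFA5 was the complex I subunit called lower, at 7.98, 8.7 and 8.13 FPKM against 10.5, 9.82 and 10.4 FPKM (-0.28). The differences between the enzymes were not tested.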

How the data were processed

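Poly-A RNA from 12 libraries, 3 for each of 4 groups taken from the sample titles, was sequenced with a kit that does not mark strand. The methods state triplicates without saying whether these were separate cultures, so p-values measure only the spread between these libraries, which may be technical. The submitters' processing notes name HISAT2 2.0.5, featureCounts 1.5.0-p3, DESeq2 1.16.1 and hg38, with no role for each. The values deposited by the authors are in FPKM: the headers name no unit, and it was read from the values, which became whole reads (within 0.05, for all values) when multiplied by GENCODE 29 exon length and a step per library. Reads per library on genes ranged from 15830381 to 20545811.

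The 47 genes, the other gene lists and the motifs were chosen with earlier results of these data known. A gene was kept if 3 or more libraries had 10 or more of its reads, scaled to the median library size, and if its reads summed to 15 or more. Kept genes were tested on log2(FPKM + 1) with limma 3.58.1 (R 4.3.3; eBayes with trend; Benjamini-Hochberg adjustment over all genes tested; threshold 0.05), within each of the 2 tables and never across them. Fold changes on this scale understate those of low genes. The script was tested on simulated data with known changes. Shown with values in every library are ABCG2, the largest called rise and fall in each complex and role, members lower after silencing, the 5 clearest opposite changes, the highest and lowest levels in each complex and the mtDNA genes; in other lists, the largest rise and fall. Other members were named to account for all 47, and the split at 10 FPKM and the genes UQCRHL and COX7A2L were chosen after their values were seen. Alternatives covered filters, the pseudocount, 3 scalings, voom, the replicate block, thresholds and leaving out each library. Promoters are from RefSeq (GRCh38.p14). Proteins were not analysed here.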

Additional observations from a re-analysis of the deposited data

How the results depend on the processing

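No call and no median over members, subunits or assembly factors reversed in direction under any alternative run. Estimates of some genes that were not called changed sign when a library was left out, such as COX5B in SK/EPI (-0.134 to 0.011). Of the 47 genes, 31 in SK/EPI and 38 after silencing kept their call, or lack of one, under every alternative that tested them. These counts leave out the stricter thresholds, and with those, 21 and 19 did. In SK/EPI against SK-BR-3, scaled to the reads on genes, to the reads without mtDNA genes, or with voom, 9 members were higher in each case in place of 5, 2 subunits in place of 1 and 7 assembly factors in place of 4, and the medians were -0.267, -0.251 and -0.27 over members (-0.329 as reported) and -0.327, -0.311 and -0.331 over subunits (-0.41). The assembly factor median of -0.209 became -0.131 and -0.117 with the first 2 scalings and -0.273 with a pseudocount of 0.1. With the remaining scaling, by each library's median ratio to the gene means (median-of-ratios scaling), 5 members were higher and 32 lower. The median over members was then -0.333. SDHAF4 could not be tested in SK/EPI with 10 reads required in every library. Without the filter, 3 members and 2 assembly factors were higher. At an adjusted p under 0.01, 3 members and 0 subunits were higher in SK/EPI (1 at 0.05), and after silencing 1 assembly factor was lower, not 3. Requiring a log2 fold change of 0.5, 1 member, 0 subunits and 1 assembly factor were higher and 17, 10 and 6 lower in SK/EPI; after silencing 7, 6 and 1 were higher and 1, 0 and 0 lower. The cause was not tested where a scaling moved a value.

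Leaving out each library in turn gave medians of -0.341 to -0.284 over members, -0.45 to -0.349 over subunits and -0.265 to -0.175 over assembly factors in SK/EPI. The counts ranged from 29 to 33 lower and 4 to 5 higher there, and from 24 to 27 higher and 5 to 7 lower after silencing. Single libraries decided some calls. In SK/EPI, the call of SDHA was lost without SK-BR-3 replicate 2 or SK/EPI replicate 1 or 2, that of COX6A1 without SK-BR-3 replicate 2 or 3 or SK/EPI replicate 1, that of COX10 without SK-BR-3 replicate 2 or 3 or SK/EPI replicate 1 or 2, that of COA5 without SK-BR-3 replicate 1 or 3 or SK/EPI replicate 2 or 3, and that of COX16 without SK/EPI replicate 3. SDHAF1, UQCRB and COX15 were called without SK-BR-3 replicate 3, and TTC19 without SK-BR-3 replicate 1. After silencing, the call of COA3 was lost without SK/EPI-siBCRP replicate 1 or 2 or SK/EPI-siControl replicate 1 or 3, that of COX7C without SK/EPI-siBCRP replicate 1 or 3 or SK/EPI-siControl replicate 2 or 3, and that of UQCR11 without SK/EPI-siBCRP replicate 2 or 3 or SK/EPI-siControl replicate 1 or 3. The call of COA3 was also lost with voom, and those of COX7C and UQCR11 without the filter. Over all 5 alternatives that lost each call, the log2 fold changes of COA3, COX7C and UQCR11 were -0.151 to -0.105, 0.153 to 0.208 and 0.158 to 0.225. COX11 was called without SK/EPI-siBCRP replicate 1, SDHAF4 without SK/EPI-siBCRP replicate 3, COA5 without SK/EPI-siControl replicate 3, and SCO2 without SK/EPI-siBCRP replicate 1 or 3. With the replicate number as a block (replicate block), 46 of 47 genes kept their call in each comparison; COA5 lost it in SK/EPI (6 alternatives in all) and SCO2 gained it after silencing. The mean correlation of deviations between same-numbered libraries was -0.03 and 0.03, so no shared effect of the number was seen in expression. These values cannot tell whether same-numbered libraries were prepared together, which the titles do not say. SCO2 was called higher after silencing in 6 alternatives. The call that rested on the fewest reads was that of SDHAF4 in SK/EPI, where each SK-BR-3 library held 8 to 15 of them.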
